A study of Homo sapiens with 3 samples.

Results

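The APOBEC3 genes encode cytidine deaminases, and 6 of them (APOBEC3A, APOBEC3B, APOBEC3C, APOBEC3F, APOBEC3G and APOBEC3H) are described here out of the 27274 genes named on the array. They were chosen by the gene names of the array, and the family was picked because of readings on these same arrays, so its fold changes are descriptions and not tests. The 6 genes had 7 probes of 60 bases on 16 spots. HepG2, a human hepatocellular carcinoma line, was cultured without etoposide (control, labelled untreated), with 10 μM etoposide or with 100 μM etoposide for 30 h. The study reports its array fold changes relative to DMSO, although the label of the control does not name it. Etoposide traps topoisomerase II on broken DNA. RNA of each condition was labeled with Cy3 and hybridized to 1 array, so there were 3 arrays, 1 per condition, and no replicate. The series was made to find genes that respond to the low dose but not to the high one.

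APOBEC3 enzymes turn cytosine into uracil in single-stranded DNA. They act in innate immunity by mutating retroviruses, hepatitis B virus and retroelements as these are copied, and the same activity on the cell's own DNA leaves clustered cytosine mutations in many tumors. The uracil they make is removed by base excision repair. The genes lie side by side on chromosome 22 and arose by duplication, so their transcripts are alike in sequence.

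That likeness bears on what each probe can read, and the probe sequences that carry the results are therefore shown first. They are given 5′ to 3′ as the array files hold them, with positions on the plus strand of hg18, and each has an open reading frame over its whole length. Capitals in the APOBEC3C and APOBEC3F sequences mark bases that are identical between these probes at their best alignment without gaps, and the other sequences carry no capitals.
APOBEC3B, chr22:37717484-37717543: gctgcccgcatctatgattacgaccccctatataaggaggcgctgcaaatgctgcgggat
APOBEC3C, chr22:37744233-37744292: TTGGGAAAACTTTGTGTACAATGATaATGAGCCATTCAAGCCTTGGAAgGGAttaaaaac
APOBEC3F, chr22:37778534-37778593: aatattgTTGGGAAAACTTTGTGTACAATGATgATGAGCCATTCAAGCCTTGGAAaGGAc
APOBEC3G, chr22:37807427-37807486: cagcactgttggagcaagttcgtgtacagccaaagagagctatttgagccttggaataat
APOBEC3H, chr22:37827920-37827979: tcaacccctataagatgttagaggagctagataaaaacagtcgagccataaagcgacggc

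The APOBEC3C and APOBEC3F probes aligned over 53 bases, of which 50 were identical, and the longest unbroken run they shared was 25 bases. Counted from the 5′ end of the APOBEC3C probe, with the APOBEC3C base first, the 3 differences were A26G, G49A and T53C. The APOBEC3G probe matched APOBEC3F at 37 of 59 aligned bases, with no shared run longer than 10 bases. The APOBEC3B probe shared no run longer than 8 bases with any other member's probe, but the files list the APOBEC3A transcript NM_145699 beside NM_004900 for it. A search of 34120 other probes on the array found none that shared a run of 20 bases with a member's probe on either strand. It compared probes with probes and not with transcripts, so it does not show which RNA a probe can bind. APOBEC3F had a second probe at chr22:37770314-37770373, listed for transcript variant 2 (NM_001006666), while the first is listed for NM_145298. The longest run that the APOBEC3F probes shared with each other was 6 bases. The APOBEC3A probe lies at chr22:37689038-37689097.

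All signals below are processed signals in the arbitrary units of the scanner, before scaling, and they cannot be compared between probes. Fold changes were computed after each array was set relative to its 75th percentile, which was 514 in control cells, 536 at 10 μM and 432 at 100 μM. A signal counts as detected where the scanner software called it well above background. The lowest such signal was 19.5 in control cells, 22.7 at 10 μM and 21.6 at 100 μM. Where the dimmer side was not detected and lay below that value, it was raised to it, and the fold change is given as "at least". Intervals are 95% intervals from the spread between spots on the same array, and they leave out any difference between cultures. The share of genes detected was 59.4%, 58.6% and 59.6% on the 3 arrays.

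Of the 6 APOBEC3 genes, 3 were detected in control cells (APOBEC3B, APOBEC3C and APOBEC3F), 5 at 10 μM and 4 at 100 μM. APOBEC3G and APOBEC3H were detected at 10 μM in addition, and APOBEC3H but not APOBEC3G at 100 μM. APOBEC3A was detected on no array. More than 3-fold higher signals at 10 μM than in control cells were found for 4 of the 5 members that could be compared, namely APOBEC3B, APOBEC3C, APOBEC3F and APOBEC3H, against 1.29% of the 16714 genes compared. At 100 μM, 2 of 4 members, APOBEC3C and APOBEC3F, were more than 3-fold above control, against 1.84% of 16976 genes. APOBEC3F is counted here by the probe that was brighter on average over all arrays, the treated ones included. In control cells its other probe was the brighter, at 77.5 against 65.5. With that other probe, 3 members were more than 3-fold above control at 10 μM and 1 at 100 μM. Between the doses, 2 of 5 members, APOBEC3B and APOBEC3H, were more than 2-fold higher at 10 μM, against 3.64% of 16790 genes. These 2 passed both thresholds of the study, APOBEC3H with a lower bound against control, as did 0.464% of 17244 genes. Only the thresholds are those of the study, and the genes passing them here are not its gene list. Since the family was picked from these readings, nothing is read from these shares.

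**Figure D1:**
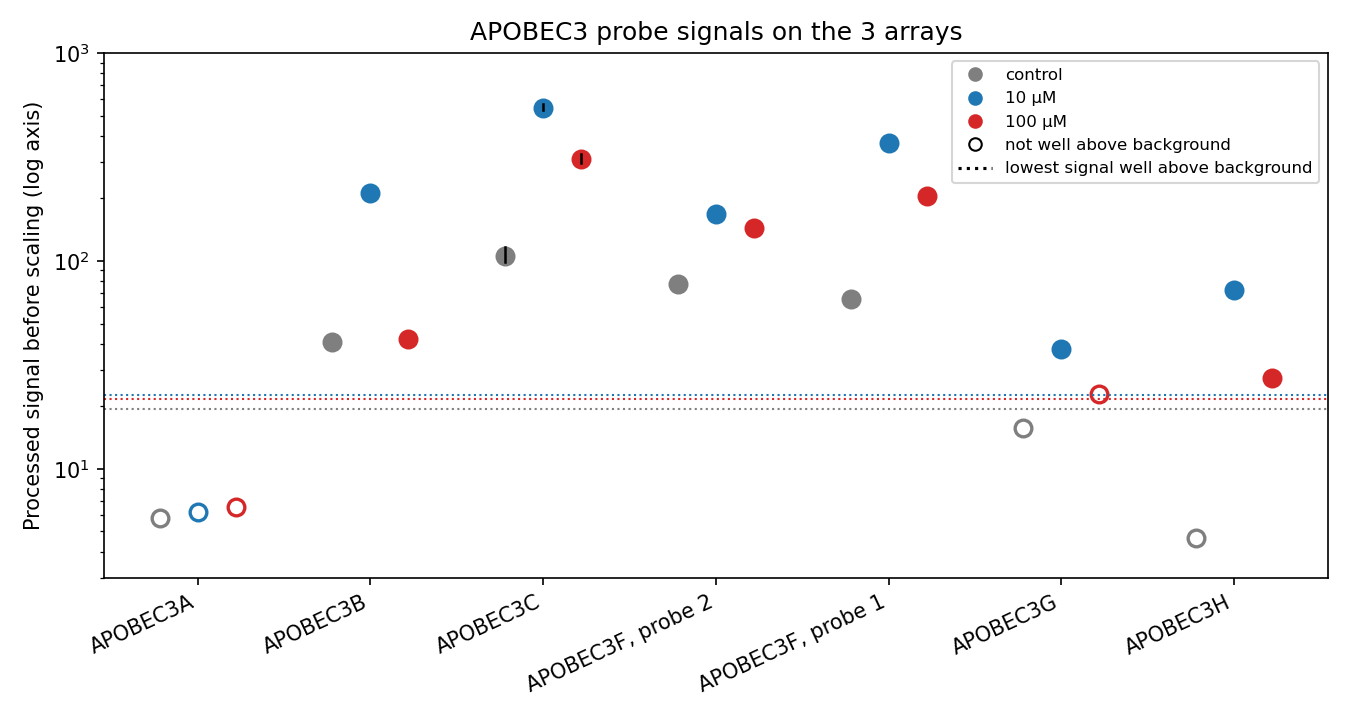
Processed signal of each APOBEC3 probe (log axis, arbitrary units) on the control, 10 μM and 100 μM arrays, in order along the chromosome, with open circles for signals not well above background, dotted lines for the lowest signal well above background on each array, and bars for the range of the 10 APOBEC3C spots. APOBEC3B returned from 212 at 10 μM to 41.9 at 100 μM, next to 40.8 in control, while APOBEC3C stayed at 308 and the first APOBEC3F probe at 206.

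APOBEC3B, a mainly nuclear enzyme with a tandem pair of deaminase domains and a known source of cytosine mutations in tumors, had a signal of 40.8 in control cells, 212 at 10 μM and 41.9 at 100 μM. The 10 μM array stood apart, and the 100 μM array was next to control. The fold change at 10 μM was 4.99 (interval 3.75 to 6.65), and it ranked 85 of 16659 genes from the highest. At 100 μM it was 1.22 (0.851 to 1.75), an interval that includes no change, and over 6 other scalings of the arrays it ran from 0.971 to 1.28. The 10 μM signal was 4.09-fold above the 100 μM signal (3.19 to 5.23). With another background correction, which adds 50 units to every spot, these ratios shrank to 2.53-fold over control and 2.01-fold between doses.

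APOBEC3C, a small enzyme with 1 deaminase domain and only weak activity against viruses, had a probe spotted 10 times on each array and the smallest spot error of the members. Its spots ranged from 99.1 to 117 in control cells, from 532 to 568 at 10 μM and from 295 to 327 at 100 μM. The 3 ranges did not overlap, although spots of 1 array are not replicates of a condition. The mean signals were 105, 545 and 308. The fold change was 4.96 (4.77 to 5.15) at 10 μM and 3.48 (3.34 to 3.62) at 100 μM, and the 10 μM signal was 1.42-fold above the 100 μM signal (1.39 to 1.46). The scanner software's own error for the log2 fold changes over control was far larger than the spot error. It was 0.214 at 10 μM and 0.215 at 100 μM, against 0.028 and 0.030 from the spots. The 100 μM fold change depended on the scaling of the arrays and ran from 2.85 to 3.64 over 6 other scalings, so it lay on both sides of 3-fold. With the background correction that adds 50 units, the fold changes were 3.44 and 2.57.

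APOBEC3B and APOBEC3C therefore had nearly the same fold change at 10 μM and parted at 100 μM. On the log2 scale the difference between their fold changes, APOBEC3B minus APOBEC3C, was 0.01 with a spot SD of 0.21 at 10 μM and -1.51 with a spot SD of 0.27 at 100 μM. The spot SD does not cover the spread between cultures, so whether the genes would part again in other cultures was not measured.

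APOBEC3F, which restricts retroviruses that lack a countering Vif protein, was read by both of its probes on every array. The first probe, the brighter after scaling on average over the arrays, had signals of 65.5, 369 and 206 in control, 10 μM and 100 μM cells. The probe for variant 2 had signals of 77.5, 167 and 144. Both were lowest in control cells, and the first probe alone separated the doses beyond its spot error. The first probe gave 5.39-fold (4.52 to 6.44) at 10 μM and 3.74-fold at 100 μM with a spot SD of 0.14 on the log2 scale. With the other background correction these became 3.25-fold and 2.46-fold. The variant 2 probe gave 2.07-fold (1.76 to 2.43) and 2.21-fold (1.86 to 2.61). Its ratio of 10 μM to 100 μM was 0.938 (0.823 to 1.07), against 1.44 (1.29 to 1.62) for the first probe.

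The disagreement between the APOBEC3F probes was larger than the spot error. It came to 1.38 on the log2 scale (spot SD 0.18) at 10 μM and 0.76 (spot SD 0.19) at 100 μM. The first APOBEC3F probe instead followed APOBEC3C, the gene whose probe it resembles. The difference in log2 fold change between those probes was 0.12 (spot SD 0.13) at 10 μM and 0.11 (spot SD 0.14) at 100 μM. How much of either signal came from the other gene's transcript was not tested. The APOBEC3F probes are listed for different transcripts, and a difference between these was not tested either. Read by the variant 2 probe, APOBEC3F was not past 3-fold at either dose.

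**Figure D2:**
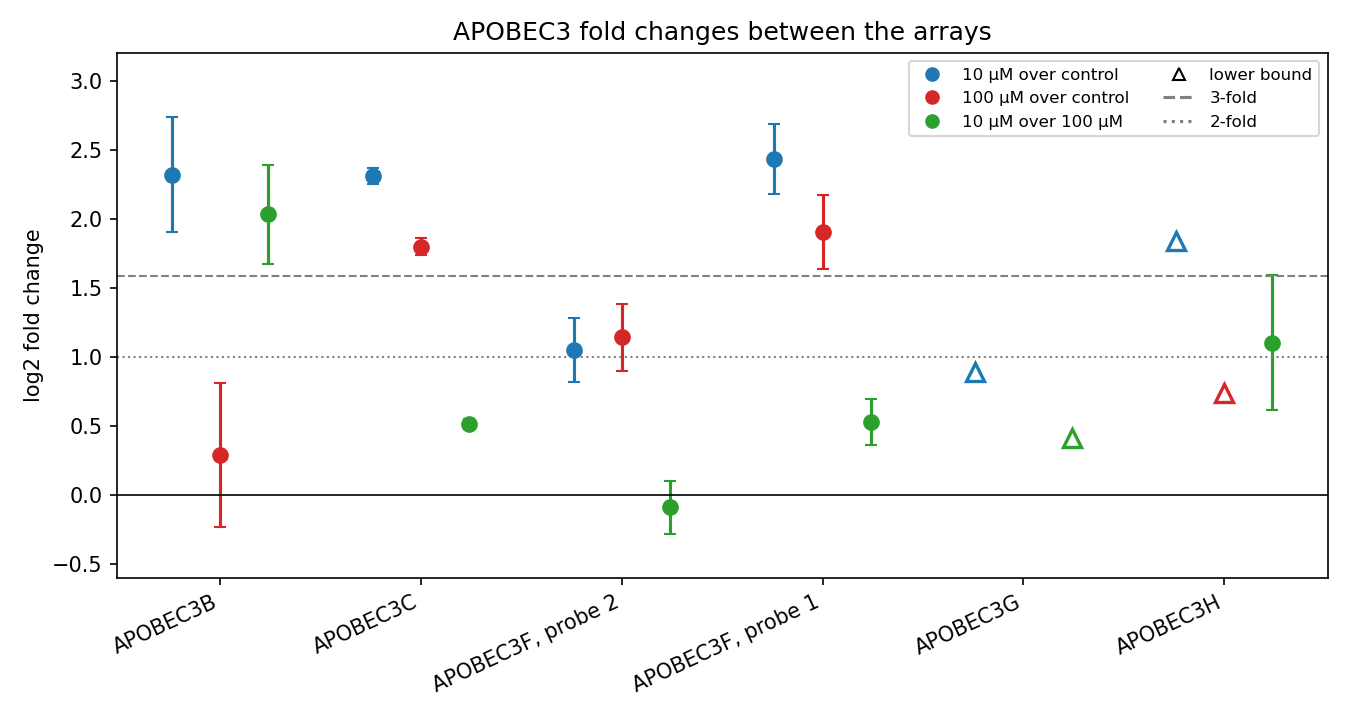
log2 fold change of each APOBEC3 probe that could be compared, for 10 μM over control, 100 μM over control and 10 μM over 100 μM, with 95% intervals from the spread between spots, triangles for lower bounds, and lines at 3-fold and 2-fold. The triangle of APOBEC3G between doses is a plain ratio to an undetected signal. APOBEC3B is the member with a high ratio between doses (4.09-fold) beside a 100 μM value near control (1.22-fold), and the APOBEC3F probes differ at 10 μM (5.39-fold and 2.07-fold).

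APOBEC3G, the classic restriction factor of Vif-deficient HIV-1, had signals of 15.8 in control cells, 37.7 at 10 μM and 22.8 at 100 μM. It was called well above background at 10 μM and on neither of the others. The 100 μM signal lay just above the lowest detected signal of its array, 21.6, although it was not called, and the APOBEC3H signal of 27.3 on that array was. The 10 μM signal was at least 1.85-fold above control. It was 1.33-fold above the 100 μM signal, a plain ratio, since that signal was not detected but needed no raising. Neither value reached its threshold. With the background correction that adds 50 units, the ratios were 1.28 over control and 0.903 between doses, so the order of the doses turned and is not settled for this gene.

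APOBEC3H, an enzyme with 1 deaminase domain that varies in stability between human haplotypes, had signals of 4.67 in control cells, 72.8 at 10 μM and 27.3 at 100 μM. The control value is a stand-in that the software wrote for a spot not above background. The 10 μM signal was therefore at least 3.57-fold above control and the 100 μM signal at least 1.67-fold above control. Without raising the dim side, the same ratios were 14.9 and 6.95. Both doses were detected, and the 10 μM signal was 2.15-fold above the 100 μM signal (1.53 to 3.01), an interval that reaches below 2-fold. The other background correction gave 1.70-fold over control as a bound, and 1.17-fold between doses.

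APOBEC3A, the interferon-inducible member best known from myeloid cells and keratinocytes, had signals of 5.80, 6.20 and 6.57, none of them above background and all of them software stand-ins. No fold change is given. APOBEC3D, the remaining APOBEC3 gene named on the array, had signals of 8.09, 11.9 and 8.05 and was not well above background either. The APOBEC genes read outside the cluster were APOBEC1, which edits apolipoprotein B RNA, APOBEC2 and APOBEC4. With APOBEC3D these made 4 genes, and 0 of 4 were detected on any array. The highest signal among them was 20.1, for APOBEC2 at 10 μM.

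The member probes spanned 139 kb of chromosome 22, and no other gene read within 150 kb of them was more than 2-fold above control at either dose. Among these genes, NPTXR was at 0.915-fold of control at 10 μM and 1.43-fold at 100 μM. CBX6, a Polycomb chromodomain gene, was at 1.34-fold and 1.45-fold. CBX7, its relative on the other side, was at 0.902-fold and 0.760-fold by 1 probe and at 0.925-fold and 1.25-fold by the other. The transcript BX115642, whose probe lies between APOBEC3G and APOBEC3H, was at 1.12-fold and 1.29-fold. Its signals of 27.9, 32.7 and 30.4 were close to the lowest detected ones. So were those of NPTXR, at 27.2, 26.0 and 32.7, and ratios of such dim signals say little. PDGFB, which encodes a growth factor chain, was detected in control cells only, so its 10 μM value was at most 0.721-fold and its 100 μM value at most 0.854-fold. LOC100128400 and ENST00000446051 were not detected.

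**Figure D3:**
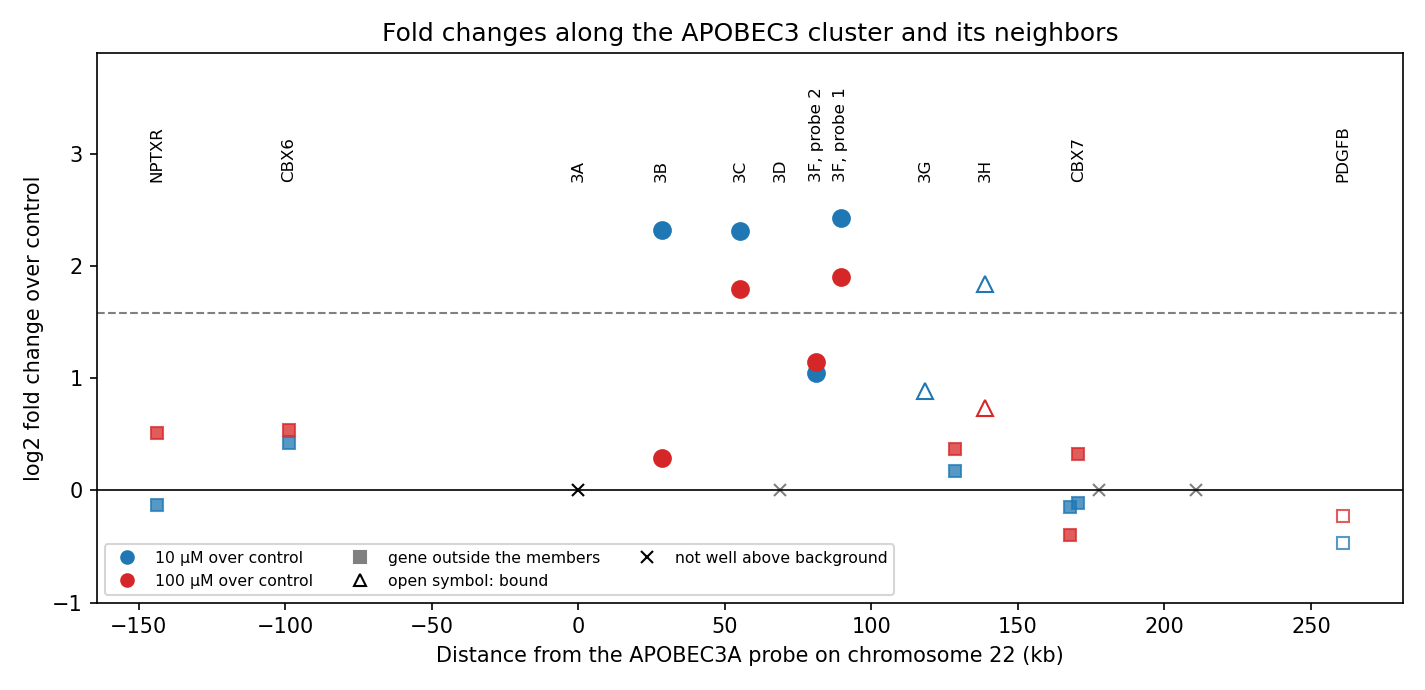
log2 fold change over control at 10 μM and 100 μM for the APOBEC3 probes (circles and triangles) and for other probes within 150 kb (squares), by distance in kb from the APOBEC3A probe, with open symbols for bounds, crosses for probes not well above background and a dashed line at 3-fold. The values above 3-fold lie inside the cluster, at APOBEC3B, APOBEC3C, APOBEC3F by its first probe and APOBEC3H. NPTXR, CBX6 and CBX7 on both sides stayed between 0.760-fold and 1.45-fold, with NPTXR signals close to the lowest detected ones.

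Because APOBEC3B passed both thresholds, the genes closest to it in the pair of fold changes were listed, out of 12046 genes detected on all 3 arrays and listed under a RefSeq mRNA. Closeness is the straight-line distance on the log2 scale. The spot SD of the log2 fold change of APOBEC3B was itself 0.21 at 10 μM and 0.27 at 100 μM. That is close to the smallest distance below, so the order of the nearest genes is not settled. The nearest was PCNA, the sliding clamp of DNA replication, at a distance of 0.31, with 4.17-fold at 10 μM and 1.37-fold at 100 μM. SLC48A1, a heme transporter, followed at 0.54 with 3.50-fold and 1.37-fold. IER5, an immediate early response gene, was at 0.67 with 3.86-fold and 1.80-fold. E2F7, a repressor of the E2F family, was also at 0.67 with 7.95-fold and 1.21-fold. WBSCR27, now named METTL27, was at 0.68 with 3.41-fold and 1.61-fold. APOBEC3C stood at place 290 and APOBEC3F, by its first probe, at place 452 in this order.

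**Figure D4:**
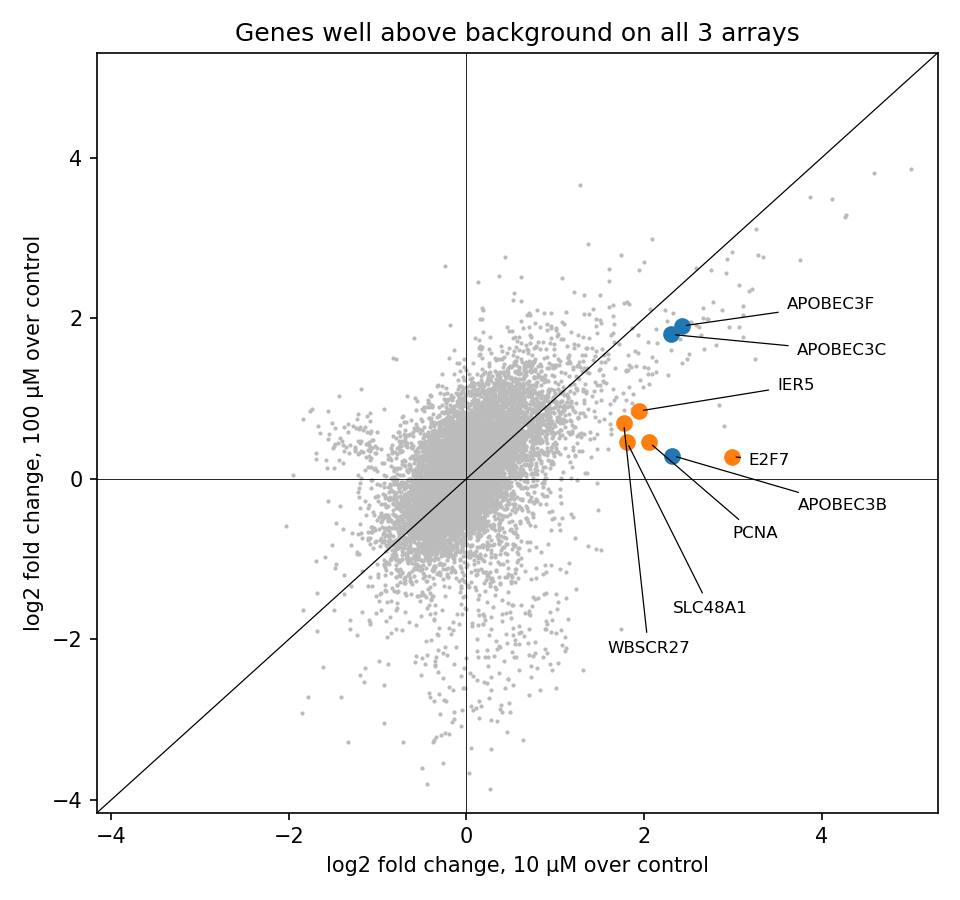
log2 fold change over control at 100 μM against that at 10 μM for all genes well above background on all 3 arrays (gray, brightest probe per gene), with the APOBEC3 genes detected on all arrays (blue), the 5 genes nearest to APOBEC3B (orange) and the line of equal change. APOBEC3C and APOBEC3F, the latter by its first probe, lie close together (3.48-fold and 3.74-fold at 100 μM). The variant 2 probe of APOBEC3F, at 2.07-fold and 2.21-fold, is not marked. APOBEC3B lies near no change at 100 μM (1.22-fold).

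Gene groups tied to the family by function or by known regulation were counted at a 2-fold change. Of all genes compared, 3.37% were more than 2-fold higher and 1.57% more than 2-fold lower at 10 μM, and 6.74% were higher and 3.63% lower at 100 μM. The median log2 change of all genes was -0.04 at 10 μM and 0.10 at 100 μM. Over probes detected on all arrays, the median at 100 μM was 0.08, and it moved to -0.17 without scaling and -0.21 with median scaling, which shifts the list medians at 100 μM alike. Without scaling 3.73% of genes were higher and 6.31% lower at 100 μM, so the split between rises and falls there turned. Of the list medians given here, that of the NF-κB genes at 100 μM turns negative under both. With 1 array per condition no group was tested.

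The product of APOBEC3 enzymes is removed by uracil glycosylases, and the gap is filled and sealed by further repair enzymes. Of 14 such genes, 2 were more than 2-fold higher at 10 μM and 0 lower, with a median log2 change of 0.20. The highest were FEN1, the flap endonuclease (2.18-fold), and LIG1, the replicative DNA ligase (2.08-fold), and the lowest were APEX1, the abasic site endonuclease (0.763-fold), and LIG3 (0.861-fold). UNG, the main uracil DNA glycosylase, had signals of 8318, 8979 and 3137, or 1.03-fold at 10 μM and 0.448-fold at 100 μM. At 100 μM 3 of 14 were more than 2-fold lower, namely UNG, FEN1 (0.449-fold) and DUT (0.440-fold), the enzyme that keeps uracil out of the nucleotide pool, and the median was -0.31.

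APOBEC3B is known to be repressed through E2F and DREAM complexes and induced through NF-κB. Of 19 E2F, pocket protein and DREAM genes, 3 were more than 2-fold higher at 10 μM (E2F7, E2F2 at 3.33-fold and E2F8 at 2.08-fold) and 0 lower. The lowest were E2F5 (0.603-fold) and E2F4 (0.897-fold), and the median was 0.22. At 100 μM 0 were higher and 8 lower (5 to 10 over 6 other scalings), and the median was -0.73. The lowest there were MYBL2 (0.177-fold) and E2F1 (0.229-fold), which were at 1.38-fold and 1.85-fold at 10 μM. E2F2 was at 0.273-fold at 100 μM and E2F7 at 1.21-fold, and other genes of the list also lay near control. Whether any of them acted on APOBEC3B was not tested. Of 9 NF-κB subunits and feedback genes, 1 was more than 2-fold higher at 10 μM, RELB (2.06-fold), followed by BIRC3 (1.55-fold). The lowest were NFKB1 (0.814-fold) and REL (0.964-fold), and the medians were 0.17 and 0.02. At 100 μM 0 of these 9 passed 2-fold in either direction.

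Several APOBEC3 genes, APOBEC3A and APOBEC3G among them, are known to respond to interferon. Of 24 interferon-stimulated genes, 19 could be compared at 10 μM, where OAS3 alone was more than 2-fold higher (2.42-fold), with ISG15 next (1.55-fold). OAS2 (0.581-fold) and IFIT3 (0.597-fold) were lowest, 0 were more than 2-fold lower, and the median was 0.17. At 100 μM 7 of 21 were more than 2-fold higher and 0 lower, with a median of 0.64. That count rested on the scaling, since it was 1 without scaling, with median scaling and with spike-in scaling, where the median ran from 0.35 to 0.47. The median of this list was thus higher at 100 μM than at 10 μM. APOBEC3B, APOBEC3C, APOBEC3F by its first probe and APOBEC3H were lower at 100 μM than at 10 μM. APOBEC3F by its variant 2 probe was at 2.07-fold at 10 μM and 2.21-fold at 100 μM, and the order of the doses was not settled for APOBEC3G. Whether interferon signaling bore on the APOBEC3 genes was not tested.

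Among 10 other restriction and RNA editing factors, 9 could be compared. TRIM22, an antiviral TRIM protein that is also a p53 target, was the 1 gene more than 2-fold higher, at least 5.98-fold at 10 μM and at least 5.34-fold at 100 μM. TRIM5, which targets retroviral capsids, was at 1.91-fold at 10 μM, SERINC5 at 0.771-fold and SAMHD1 at 0.903-fold. The medians were 0.37 and 0.50. Of 20 p53 target genes, 15 were more than 2-fold higher at 10 μM and 10 at 100 μM, with medians of 1.64 and 1.03 and 0 lower at either dose. BTG2 (10.1-fold) and CDKN1A (7.94-fold), both brakes on the cell cycle, were highest at 10 μM, and SESN2 (1.05-fold) and CCNG1 (1.06-fold) were lowest.

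All 10 liver cell markers were detected on every array, with a summed signal of 301862 in control cells, 344988 at 10 μM and 341728 at 100 μM before scaling. Their fold changes went both ways. At 10 μM the highest were TTR (1.51-fold) and SERPINA1 (1.39-fold), and the lowest were HNF4A (0.574-fold) and ALB (0.598-fold). The range at 100 μM was from 0.698-fold for ALB to 2.16-fold for TTR. APOBEC3 genes are high in blood cells, so markers of these were read as well. Of 9 lymphoid markers, 6 were detected on each array, with summed signals of 5116, 6275 and 7822, while CD2, MS4A1 and GNLY were detected on none. CD79A was the largest part of each sum, with 3771, 3461 and 5416. CD3D, a T cell receptor chain, had signals of 187, 1880 and 1358, whereas CD3E, its partner, had 46.8, 34.6 and 52.9, and PTPRC, the common leukocyte antigen, had 257, 131 and 288. NKG7, a killer cell gene, had 29.5, 40.5 and 32.8. Of the 8 myeloid markers on the array, 3, 3 and 5 were detected in control, 10 μM and 100 μM cells, with summed signals of 1462, 2224 and 2755, and ITGAM, S100A8 and S100A9 were detected on none. CD14, a coreceptor for bacterial lipopolysaccharide, had signals of 521, 1184 and 1847, or 2.18-fold at 10 μM and 4.22-fold at 100 μM. TYROBP (1.07-fold at 10 μM) and FCER1G (1.04-fold), adaptor chains of immune receptors, were the other myeloid markers compared there. All arrays read a cultured HepG2 line, so these markers are signals of single genes and not a count of blood cells. Their relation to the APOBEC3 values was not tested. A lower share of cells with a transcript and less transcript per cell cannot be told apart on these arrays.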

How the data were processed

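RNA of HepG2 cells was measured on 1-color Agilent arrays, 1 for each of 3 conditions, and groups came from the dose in the labels. The authors deposited scanner output of Agilent Feature Extraction (version 10.7.3.1), whose processed intensity is subtracted for background and detrended within the array but not scaled between arrays. A deposited series table held the same intensity, within a relative tolerance of 1e-06, for all 44495 spots of each array and was used as an alternative. Further normalization is not given in the sources used here. Probe positions (hg18) and gene names were taken from the array files. No annotation of that build was used, so the exon or untranslated region of a probe is not given. Current symbols came from a RefSeq table.

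Intensities were put on the log2 scale, averaged over spots that the software did not mark as outliers, and set relative to the 75th percentile over all 34127 non-control probes. The probe brightest on average over the arrays stood for a gene, so the treated arrays took part in that choice. No spot was saturated. A fold change needed the brighter side well above background. Spot error came from a probe's own 10 spots (APOBEC3C) or from the 50 repeated probes nearest in signal on the same array. As the number of arrays limits the precision and each condition had 1, no p-value was computed. The software's own error model gave a median error of 0.226 for a member's log2 fold change at 10 μM, against 0.130 from the spots. The steps were tested on simulated arrays. Python 3.11.15, pandas 2.3.3, R 4.3.3 and limma 3.58.1 (background correction and quantile normalization for alternatives) were used.

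The members and the gene lists were chosen with earlier results of these data known. Named genes are all members with every probe, other APOBEC genes, genes with a probe within 150 kb, the 5 genes nearest to APOBEC3B, and the 2 highest and 2 lowest of each gene or marker list at 10 μM. UNG, DUT, E2F1, E2F8, MYBL2, CD79A, the 100 μM values of listed genes, and the undetected markers were named after their values were seen. Of the genes this rule selects, 1 is not reported here. Of 6 members, 5 passed the filter on dim signals at 10 μM and 4 at 100 μM against control.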

Additional observations from a re-analysis of the deposited data

How the results depend on the processing

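Each fold change was recomputed under 6 scalings, normexp background correction with an offset of 50, dim signals not raised, probes detected on all arrays only, outlier spots kept, the median of a gene's probes and the deposited series table. No fold change past its threshold changed direction, but APOBEC3G between doses, a ratio of 1.33 short of the threshold, was 0.903 with normexp correction. Normexp correction, which compresses ratios of dim probes, lowered the fold over control at 10 μM to 2.53 for APOBEC3B, 3.44 for APOBEC3C, 3.25 for APOBEC3F and 1.70 for APOBEC3H, and the ratio of 10 μM to 100 μM to 2.01 for APOBEC3B and 1.17 for APOBEC3H. Under it 2 members stayed more than 3-fold higher at 10 μM, 0 at 100 μM, 1 was more than 2-fold higher at 10 μM than at 100 μM, and 0 passed both thresholds. APOBEC3C at the 10 μM signal was 5.17-fold without scaling and 4.76-fold with quantile normalization. APOBEC3F at the 10 μM signal was 3.34-fold by the median of its probes and 2.07-fold by its second probe alone, an alternative chosen after seeing the data. The count above 3-fold at 100 μM was 1 without scaling, with median scaling, by the median of the probes and with the second APOBEC3F probe. With probes detected on all arrays only, APOBEC3H could not be compared, so 1 member was more than 2-fold higher at 10 μM than at 100 μM and 1 passed both thresholds. APOBEC3H over control at the 10 μM signal was 14.9-fold where its dim control signal was not raised. Of 234 values under alternatives, 191 stayed within spot error or, for counts, within 1.5 times. Many of these could not have moved, since the deposited series table held the same intensities. Other alternatives touch only dim probes or genes with several probes, so this share does not measure robustness. The dim control signals of APOBEC3G and APOBEC3H limit what can be said of them. The gene lists were recounted under the other scalings after seeing the data. The interferon-stimulated count at 100 μM ran from 1 to 7, against 7, and that of E2F and DREAM genes more than 2-fold lower from 5 to 10, against 8. No paired analysis was possible because there was only 1 array for each condition.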
